A study of Rattus norvegicus with 12 samples.

Results

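The 41 genes described here encode the actin filaments, motors and crosslinkers of stress fibres, together with the transcription factor, coactivator and target genes tied to actin assembly. They were chosen by name from a list, and each was taken as the row of the deposited gene table that carries its symbol, or the row with most counts where a symbol recurred. The table held 39 of them under the listed symbol. Mkl1 was found as Mrtfa, its current symbol in RefSeq, and Palld was not found under that name and is not analysed here. All 40 genes found passed the filter on low counts, which 15650 of the 21071 genes in the table passed. The rule used no measured value, although the list was drawn up with earlier results of these data known.

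Total RNA was sequenced from rat nucleus pulposus cells, which come from the soft centre of the intervertebral disc and which the labels enter as a cell line cultured in DMEM/F12 medium with serum. There were 12 libraries in 4 groups of 3. All cells received exosomes, small vesicles that cells release, from nucleus pulposus progenitor cells: plain ones in the group NPPC-Exo and ones with miR-221-3p overexpressed in the group miR-Exo. The groups Erastin+NPPC-Exo and Erastin+miR-Exo received the same exosomes and erastin, a blocker of cystine uptake used to bring on ferroptosis, an iron-dependent form of cell death. The labels' protocol gives 0.1 to 5 µM over 48 h, and does not say which dose any library received. The protocol gives 50 µg/mL for NPPC-Exo and no separate figure for miR-Exo. No group lacked exosomes, so 4 pairs of groups are compared: with and without erastin for either kind of exosome, and one kind of exosome with the other, first without erastin and then with it, besides the difference between the 2 erastin effects (the interaction). Nothing in the labels ties the 3 libraries of a group to separate cultures or animals. The p-values therefore measure only how far these libraries spread, which may be technical. The microRNA that sets the exosome kinds apart is printed here from RefSeq (GRCr8, chrX:6023246-6023268, plus strand), with its seed, bases 2 to 8, in capitals; its target sites were not searched, since no 3′ UTR sequence was used.
rno-miR-221-3p: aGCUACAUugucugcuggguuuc

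Stress fibres are bundles of actin filaments crosslinked by alpha-actinin and filamin, coated by tropomyosin and calponin, and pulled on by non-muscle or smooth muscle myosin II once its regulatory light chain is phosphorylated. Their assembly uses up free actin monomers, which releases the coactivator MRTF-A (Mrtfa) to work with serum response factor (Srf) on genes that mostly encode stress fibre proteins themselves. Tension also lets YAP work with TEAD factors on genes such as Ccn1 and Ccn2. In culture on stiff plastic, many connective tissue cells, nucleus pulposus cells among them, form stress fibres and express smooth muscle actin.

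Levels are given as counts scaled to a common library total (CPM), with totals adjusted by trimmed means of M values (TMM), for comparing libraries. FPKM, which the authors deposited and which are per kilobase of gene, serve to compare genes. Differences are log2 fold changes ± SE from edgeR's quasi-likelihood test, and a gene is said to rise, fall or change where its Benjamini-Hochberg adjusted p over the 15650 genes was under 0.05. Library totals ran from 54616827 to 68865720 counts, so that 3 counts, the limit that a count of 0 allows, came to at most 0.0565 CPM. The TMM factors were 0.877 to 0.946 without erastin and 1.06 to 1.15 with it. Within groups, the first replicates of NPPC-Exo and of miR-Exo lay at 1 end of the main component of the spread, which held 30.4% of the within-group variance. Calls of members that were gained or lost without these 2 libraries are given beside the values they touch.

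Of the genes listed for nucleus pulposus and cartilage, 9 were tested. With erastin 6 fell and 2 rose under NPPC-Exo, where 22.1% of all genes tested fell and 21.5% rose. Under miR-Exo 7 fell and 1 rose, where 24.4% fell and 24.7% rose. The summed FPKM of the 10 listed genes found, most of it Acan, was 955 to 1112 with NPPC-Exo and 1029 to 1201 with miR-Exo. With erastin it was 204 to 222 under NPPC-Exo and 156 to 171 under miR-Exo. Acan and Col2a1 were not among the genes that rose and do not stand for the whole list. Acan, the aggrecan core protein, was at 775 and 841 FPKM without erastin and 134 and 122 with it (NPPC-Exo, then miR-Exo). Col2a1, the type II collagen gene, stood at 190.0, 201, 50.99 and 16.4 FPKM in the same order of groups. Krt8 was at 1.36 to 2.31 FPKM and Krt18 at 0.09 or less, and Tbxt, Krt19, Car3 and Shh were not found under those names. Col1a1, the type I collagen gene of fibroblasts and annulus cells, was at 1375 to 4542 FPKM. The 9 fibroblast and annulus genes found summed to 8144 to 9123 FPKM with NPPC-Exo and 8373 to 9580 with miR-Exo. With erastin they summed to 4148 to 4776 under NPPC-Exo and 2821 to 3575 under miR-Exo. Of the 9 fibroblast and annulus genes tested, 5 fell with erastin under each exosome, while 1 rose under NPPC-Exo and 3 under miR-Exo. Of the 10 genes listed for smooth muscle cells and pericytes, 8 fell under each exosome, where 22.1% and 24.4% of all genes tested fell. The summed FPKM of these 10 was 412 to 419 with NPPC-Exo, 386 to 401 with miR-Exo, 105 to 114 with Erastin+NPPC-Exo and 99.5 to 102 with Erastin+miR-Exo. That list holds Myh11, which is also among the 41. Des, Rgs5 and Kcnj8 of the list had group means of at most 1.32 FPKM. Myocd, the smooth muscle coactivator of Srf, was at 37.99, 37.97, 9.28 and 8.66, and Myh11 at 114, 109, 15.85 and 10.6. The remaining genes, Abcc9, Cspg4, Pdgfrb, Notch3 and Mcam, made up the rest of the sum. Skeletal Acta1 stood at 49.6, 32.4, 5.26 and 1.51 FPKM, with Myod1 and Myog at 0.2 or less, and the 7 skeletal muscle genes found summed to 3.44 to 55.3. The 3 endothelial and 5 leukocyte genes found summed to at most 0.78 and 2.72 FPKM. The part of these marker changes in the results below was not tested, and in bulk RNA fewer cells of a type and less RNA per cell cannot be told apart.

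With erastin, most of the contractile genes were lower under both kinds of exosome. Under NPPC-Exo 29 of the 40 fell, 5 rose and 6 did not pass, where 22.1% of all genes tested fell and 21.5% rose (43.6% called). Their median log2 fold change was -0.79, against 0.02 over all genes. Under miR-Exo 34 fell, 3 rose and 3 did not pass, where 24.4% of all genes fell and 24.7% rose (49.1% called), with a median of -1.24 against 0.03. The deepest falls were in genes of differentiated smooth muscle: Myh11, the smooth muscle myosin heavy chain, was 8.72-fold lower under NPPC-Exo and 12.6-fold lower under miR-Exo, and Mylk, the kinase that phosphorylates the myosin light chain, 6.76-fold and 10.6-fold lower. Scaling by library size alone moved the median of all genes to 0.30 under NPPC-Exo and 0.33 under miR-Exo, and the share of higher genes among those called from 49.3% to 77.8% and from 50.4% to 76.4%. On that scale 52.6% of all genes tested were called under NPPC-Exo and 58.3% under miR-Exo. Of the members, 27 fell and 7 rose under NPPC-Exo, and 32 fell and 5 rose under miR-Exo. The 2 erastin comparisons share no library. Across the 40 genes their log2 fold changes had a Pearson r of 0.927 and a Spearman's coefficient of 0.885, against 0.65 and 0.648 across all genes tested. Genes are not independent replicates. The 2 sets were also not matched for level, and the members were mostly abundant genes, with a median of 396 FPKM with NPPC-Exo. The value was the lower one under miR-Exo for 36 of the 40 members and for 7285 of the 15650 genes tested.

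**Figure D1:**
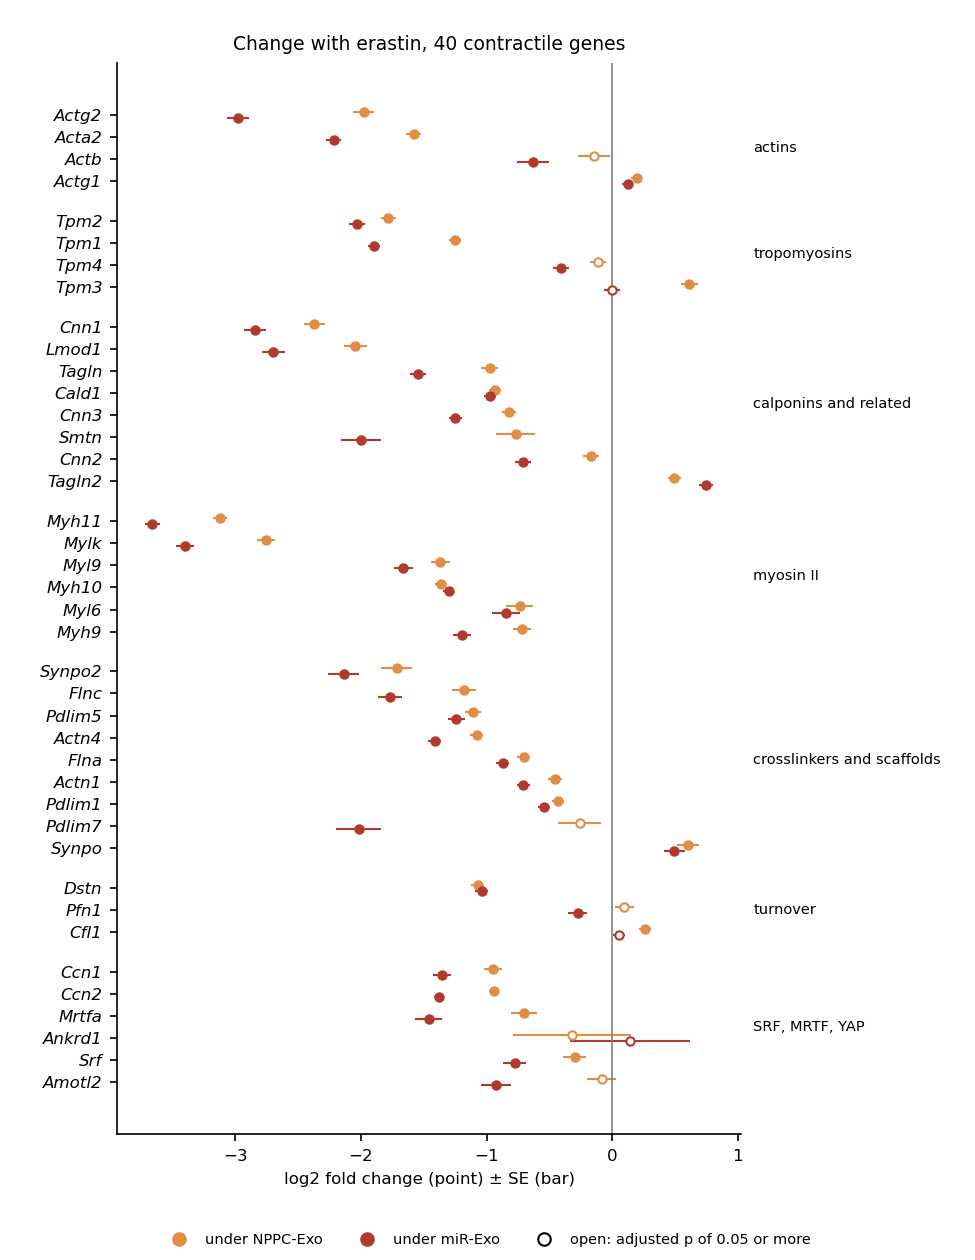
Log2 fold change with erastin (horizontal axis, point ± SE) of the 40 genes found, grouped by role, under NPPC-Exo (orange) and miR-Exo (red); open points did not reach an adjusted p under 0.05. Most points lie left of 0, down to -3.66 for Myh11, while Tagln2 and Synpo lie right of it in both comparisons.

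The 4 actins moved apart with erastin. Acta2, the smooth muscle alpha-actin that marks contractile cells, stood at 11548, 12169.8 and 13108 CPM with NPPC-Exo, 10417, 10013 and 10129.9 with miR-Exo, 4442, 3743 and 4137 with Erastin+NPPC-Exo, and 2143, 2236 and 2195 with Erastin+miR-Exo. It was the second most abundant gene of the table without erastin (7412 FPKM with NPPC-Exo, rank 2) and ranked 11 and 20 with erastin under NPPC-Exo and miR-Exo. No library with erastin reached a level without it, and the log2 fold change was -1.58 ± 0.06 under NPPC-Exo (edgeR, adjusted p = 1.93e-10) and -2.22 ± 0.06 under miR-Exo (adjusted p = 8.44e-12). Actg2, the enteric smooth muscle gamma-actin, held 1.17% of the summed FPKM of the 4 actins with NPPC-Exo and stood at 245, 271 and 275 CPM with NPPC-Exo, 169.5, 177 and 159.8 with miR-Exo, 74.2, 59.4 and 67.1 with Erastin+NPPC-Exo, and 20.5, 20.9 and 22.9 with Erastin+miR-Exo. Its groups did not overlap, and it fell with erastin under NPPC-Exo (-1.98 ± 0.08) and miR-Exo (-2.98 ± 0.09).

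The cytoplasmic actins, which every cell uses, gave smaller fold changes. Actb stood at 6044, 5398 and 5602 CPM with NPPC-Exo, 7759, 5074 and 5023 with miR-Exo, 5369.6, 4788 and 5258 with Erastin+NPPC-Exo, and 3745, 3899 and 3879 with Erastin+miR-Exo. Its value of 7759 CPM in the first miR-Exo library was well above the other libraries, and no group but Erastin+miR-Exo stood clear of the rest. Actb fell under miR-Exo (-0.63 ± 0.13, edgeR adjusted p = 0.00109) and gave -0.14 ± 0.13 under NPPC-Exo (adjusted p = 0.398), which by library size alone was 0.14 (adjusted p = 0.372). Without the first miR-Exo library the NPPC-Exo value was -0.14 with an edgeR adjusted p of 0.0318. The value under miR-Exo was -0.40 without both first replicates (adjusted p = 2.67e-05). On log2(FPKM + 1), tested with limma, it was -0.30 and did not pass (adjusted p = 0.0813). Actg1 ran from 2928 to 3315 CPM without erastin and from 3130.2 to 3839.6 with it, and rose by 0.19 ± 0.04 and 0.12 ± 0.04. The second of these calls (adjusted p = 0.032) was lost without any 1 of the miR-Exo libraries, any 1 of the Erastin+miR-Exo libraries, or the third Erastin+NPPC-Exo library, with adjusted p from 0.0556 to 0.106. Actins share most of their sequence, as do tropomyosins in part, so reads may be split within each family uncertainly.

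Among the tropomyosins, which wind along actin filaments and set which proteins bind them, Tpm1 and Tpm2 fell with erastin under both exosomes. Tpm2 stood at 1315, 1476 and 1542 CPM with NPPC-Exo, 1222, 1279.6 and 1235 with miR-Exo, 444, 399 and 418 with Erastin+NPPC-Exo, and 293, 303 and 318 with Erastin+miR-Exo. Tpm1 stood at 1645, 1613 and 1637 CPM with NPPC-Exo, 1581, 1499.8 and 1481 with miR-Exo, 731, 648 and 677 with Erastin+NPPC-Exo, and 401, 417 and 409 with Erastin+miR-Exo. Both were lower in every library with erastin than in any without it, and both were lower with Erastin+miR-Exo than with Erastin+NPPC-Exo. The log2 fold changes were -1.25 ± 0.05 and -1.89 ± 0.05 for Tpm1 and -1.78 ± 0.06 and -2.03 ± 0.06 for Tpm2 (edgeR adjusted p at most 1.94e-10). Tpm3 and Tpm4 did not follow. Tpm3 stood at 436, 372 and 364 CPM with NPPC-Exo, 392, 373 and 382 with miR-Exo, 563, 599 and 634 with Erastin+NPPC-Exo, and 379.8, 381 and 387 with Erastin+miR-Exo. It rose under NPPC-Exo (0.62 ± 0.07, adjusted p = 4.34e-06), while the miR-Exo value was 0.00 ± 0.06 (adjusted p = 0.986), or 0.31 (adjusted p = 0.000951) by library size alone. Tpm4 stood at 1056, 1050.2 and 1060.2 CPM with NPPC-Exo, 1267, 1031 and 1045 with miR-Exo, 986, 945 and 999.8 with Erastin+NPPC-Exo, and 841, 865 and 811 with Erastin+miR-Exo. It fell under miR-Exo (-0.41 ± 0.07, adjusted p = 0.000178; -0.10 and 0.168 by library size alone) and gave -0.11 ± 0.07 under NPPC-Exo (adjusted p = 0.196), where library size alone turned the sign (0.17, adjusted p = 0.0309). The miR-Exo value was -0.31 (adjusted p = 9.79e-05) without both first replicates. Without the first miR-Exo library, in which Tpm4 was highest, the NPPC-Exo value kept its size at -0.11 with an adjusted p of 0.0332.

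**Figure D2:**
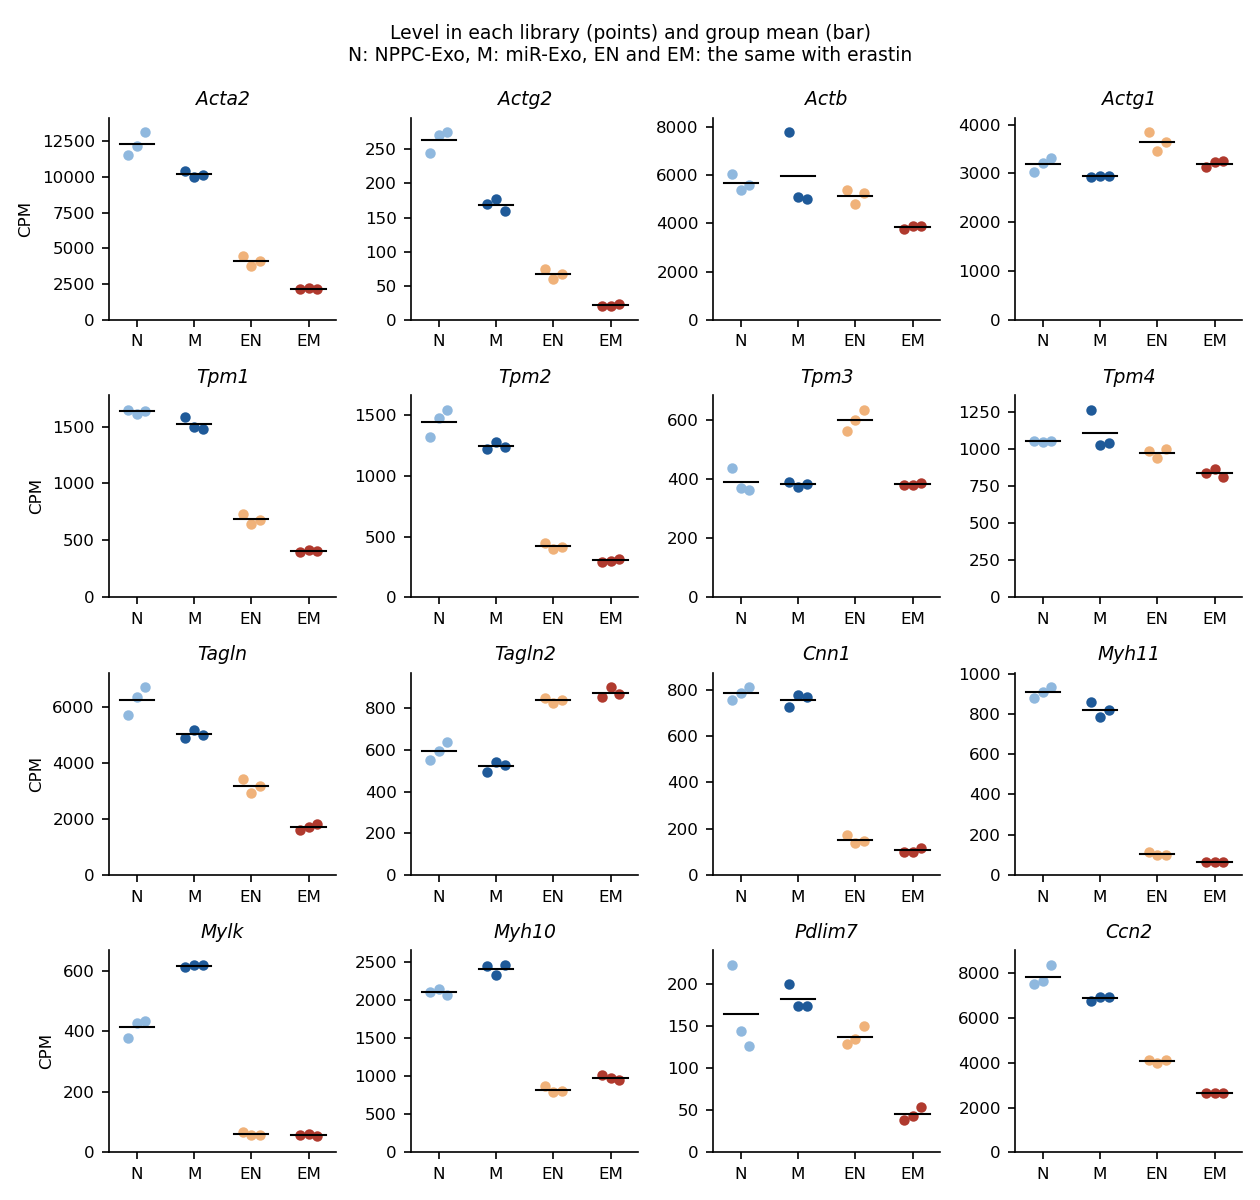
CPM (vertical axes, from 0) of 16 of the genes in each library (points) with the group mean (bar), for NPPC-Exo (N), miR-Exo (M) and the same exosomes with erastin (EN, EM). Acta2, Tpm1, Tpm2, Cnn1, Myh11 and Mylk are far lower in both erastin groups, Tagln2 is higher, and Pdlim7 is lowest in the Erastin+miR-Exo group.

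Because the FPKM of genes within 1 library share its scaling, the make-up of each family can be read without a choice of scale, and it is given here as a description with no test. Acta2 made up 55.4% ± 1.69 (SD, n = 3) of the summed FPKM of the 4 actins with NPPC-Exo and 51.3% ± 3.34 with miR-Exo. With erastin its share was 29.7% ± 0.642 under NPPC-Exo and 21.9% ± 0.183 under miR-Exo. The share of Actg1 went the other way, from 17.8% and 18.3% to 32.7% and 39.6%. Among the tropomyosins Tpm2 held 36.8% and 33.4% without erastin and 17.2% and 16.2% with it, and Tpm4 37.9%, 41.8%, 56.4% and 62.7% in the same order. Tpm3 held 5.29% and 5.41% without erastin and 12.99% and 10.8% with it. Cnn1 held 41.5% of the 3 calponins with NPPC-Exo and 15.1% with Erastin+NPPC-Exo, with 40.2% and 15.02% for the miR-Exo groups. Acta2, Tpm2 and Cnn1 held less of their family in every library with erastin than in any without it, and Actg1, Tpm3 and Tpm4 held more. Values per gene do not separate the transcript forms of a gene, so a switch between muscle and non-muscle tropomyosin forms cannot be read from them. All 40 genes together took 7.02% ± 0.116 of all counts with NPPC-Exo, 6.73% ± 0.153 with miR-Exo, 4.88% ± 0.253 with Erastin+NPPC-Exo and 3.83% ± 0.0453 with Erastin+miR-Exo (SD, n = 3). Of the 100 genes with the highest mean FPKM, 19, 18, 12 and 10 were members in these groups.

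**Figure D3:**
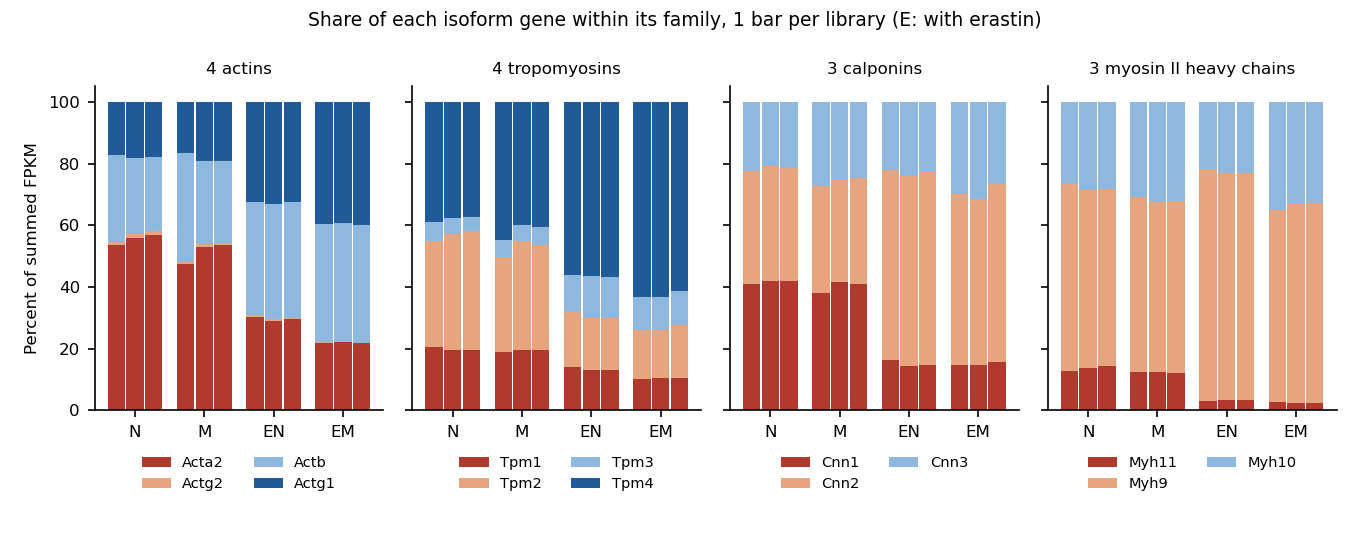
Percent of the summed FPKM of each family (vertical axis) held by each gene, with 1 bar per library, for the actins, tropomyosins, calponins and myosin II heavy chains; N and M are NPPC-Exo and miR-Exo, EN and EM the same with erastin. The Acta2 share of the actins is 47.4% or more in every library without erastin and 30.4% or less in every library with it.

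Of the 8 genes of the calponin, transgelin, caldesmon, smoothelin and leiomodin group, which bind or steady filaments of contractile cells, 7 fell and 1 rose with erastin under each exosome. Of all genes tested, 22.1% fell and 21.5% rose under NPPC-Exo, and 24.4% fell and 24.7% rose under miR-Exo. Cnn1, the smooth muscle calponin, stood at 754, 787 and 809 CPM with NPPC-Exo, 725, 777 and 766 with miR-Exo, 171, 136 and 148 with Erastin+NPPC-Exo, and 98.5, 100.1 and 118 with Erastin+miR-Exo. Lmod1, the smooth muscle leiomodin that starts new filaments, stood at 322, 330.3 and 336 CPM with NPPC-Exo, 332, 314 and 332 with miR-Exo, 94.6, 70.1 and 75.2 with Erastin+NPPC-Exo, and 49.9, 51.4 and 49.5 with Erastin+miR-Exo. The libraries with and without erastin did not overlap for either gene, and each was lowest with Erastin+miR-Exo. Cnn1 was 5.17-fold and 7.17-fold lower, and Lmod1 4.12-fold and 6.48-fold lower (edgeR adjusted p at most 7.57e-10). Tagln, transgelin or SM22, was among the most abundant genes of all, at 5711, 6339.5 and 6689 CPM with NPPC-Exo, 4880.2, 5176 and 5009 with miR-Exo, 3413, 2937 and 3180.0 with Erastin+NPPC-Exo, and 1614, 1723 and 1823 with Erastin+miR-Exo. It fell under both exosomes (-0.98 ± 0.07 and -1.55 ± 0.07). Its paralog Tagln2, of non-muscle cells, went up: it stood at 551, 595 and 638 CPM with NPPC-Exo, 494, 542 and 527 with miR-Exo, 849, 826 and 840.1 with Erastin+NPPC-Exo, and 855, 899 and 869 with Erastin+miR-Exo. Tagln2 rose by 0.50 ± 0.05 and 0.75 ± 0.05, and its share of the summed FPKM of the pair went from 8.43% and 9.11% without erastin to 20.4% and 32.98% with it.

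The other calponins fell less than Cnn1. Cnn2 stood at 327, 339 and 341 CPM with NPPC-Exo, 318, 297 and 311 with miR-Exo, 313, 281 and 302 with Erastin+NPPC-Exo, and 178, 179 and 208 with Erastin+miR-Exo. It fell under miR-Exo (-0.71 ± 0.06), where the lowest value without erastin, 297 CPM, was above the highest with it, 208 CPM. Under NPPC-Exo the value was -0.17 ± 0.06 (edgeR adjusted p = 0.0465), a call lost without any 1 library except the third of Erastin+miR-Exo (adjusted p up to 0.243, without the second Erastin+NPPC-Exo library) and turned to 0.11 (adjusted p = 0.136) by library size alone. It was -0.19 (adjusted p = 0.056) without both first replicates. Cnn3 stood at 550.2, 518 and 547 CPM with NPPC-Exo, 692, 627 and 617 with miR-Exo, 309, 299.8 and 305 with Erastin+NPPC-Exo, and 263, 286 and 267 with Erastin+miR-Exo. It fell under both (-0.82 ± 0.05 and -1.25 ± 0.05), with all libraries with erastin below all without. Cald1, the caldesmon that restrains myosin on actin, stood at 5138, 5476 and 5403 CPM with NPPC-Exo, 4796, 4927 and 5062 with miR-Exo, 2985, 2644 and 2756 with Erastin+NPPC-Exo, and 2614, 2498 and 2429 with Erastin+miR-Exo. It fell under both exosomes (-0.93 ± 0.05 and -0.97 ± 0.05). Smtn, smoothelin, stood at 684, 469 and 437 CPM with NPPC-Exo, 783, 636 and 627 with miR-Exo, 293, 312 and 329 with Erastin+NPPC-Exo, and 164, 147 and 199 with Erastin+miR-Exo. The first NPPC-Exo library, at 684 CPM, was above the other two of its group, and the log2 fold change was -0.77 ± 0.15 under NPPC-Exo and -2.003 ± 0.16 under miR-Exo. Without both first replicates these were -0.54 (adjusted p = 0.00106) and -1.89.

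All 6 myosin II genes fell with erastin under both exosomes, where 22.1% (NPPC-Exo) and 24.4% (miR-Exo) of all genes tested fell. Myh11 stood at 881, 908 and 931 CPM with NPPC-Exo, 858, 784 and 819.7 with miR-Exo, 112, 101 and 99.8 with Erastin+NPPC-Exo, and 66.03, 64.2 and 64.5 with Erastin+miR-Exo. Mylk stood at 379, 427 and 434 CPM with NPPC-Exo, 610.2, 618 and 617 with miR-Exo, 67.3, 57.3 and 58.8 with Erastin+NPPC-Exo, and 58.3, 60.9 and 55.4 with Erastin+miR-Exo. No other members fell as far as these, and every library with erastin lay below every one without it. The log2 fold changes were -3.12 ± 0.06 and -3.66 ± 0.06 for Myh11 (edgeR adjusted p = 5.07e-13 and 1.36e-13) and -2.76 ± 0.07 and -3.40 ± 0.07 for Mylk. Myl9, the regulatory light chain that Mylk phosphorylates, stood at 751, 844 and 898 CPM with NPPC-Exo, 759, 803 and 798 with miR-Exo, 349, 300.4 and 317 with Erastin+NPPC-Exo, and 236, 244 and 267 with Erastin+miR-Exo. It fell under both exosomes (-1.37 ± 0.07 and -1.66 ± 0.07). Myh9, the heavy chain of non-muscle myosin IIA and the most abundant of the 3 by FPKM, stood at 3891, 3525 and 3417 CPM with NPPC-Exo, 3685, 3252 and 3490.3 with miR-Exo, 2459, 2044 and 2078 with Erastin+NPPC-Exo, and 1476, 1530.2 and 1538 with Erastin+miR-Exo. It fell (-0.72 ± 0.07 and -1.20 ± 0.07), and with erastin it held 74.1% and 63.8% of the summed FPKM of the heavy chains, against 58.5% and 55.98% without. Myh10, of non-muscle myosin IIB, ran from 2068 to 2462 CPM without erastin and from 788 to 1014 with it (-1.36 ± 0.05 and -1.30 ± 0.05). The Myh10 share of the heavy chains went from 27.9% to 22.6% under NPPC-Exo and from 31.7% to 33.7% under miR-Exo. That of Myh11 went from 13.7% to 3.27% and from 12.3% to 2.54%. Myl6, the essential light chain, ran from 723 to 1038 and from 410.3 to 569 CPM (-0.74 ± 0.11 and -0.84 ± 0.11).

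Of the 9 crosslinkers and stress fibre scaffolds found, 7 fell and 1 rose under NPPC-Exo, and 8 fell and 1 rose under miR-Exo. The shares over all genes tested were 22.1% falling and 21.5% rising, then 24.4% and 24.7%. Flna, filamin A, which joins filaments into nets, had the highest mean FPKM of this group and stood at 9926, 10312 and 9365 CPM with NPPC-Exo, 9018, 8291 and 9125 with miR-Exo, 6403, 5749 and 6007 with Erastin+NPPC-Exo, and 4853, 4845 and 4745 with Erastin+miR-Exo. Actn4, an alpha-actinin, stood at 3101, 3016 and 3047 CPM with NPPC-Exo, 2758, 2569.6 and 2750.4 with miR-Exo, 1559, 1338 and 1442 with Erastin+NPPC-Exo, and 991, 1019 and 1025 with Erastin+miR-Exo. The groups with and without erastin stood clear of each other for both genes, which fell under both exosomes: Flna by log2 values of -0.71 ± 0.05 and -0.87 ± 0.05, Actn4 of -1.08 ± 0.05 and -1.41 ± 0.05. Actn1, the other non-muscle alpha-actinin, stood at 2628, 2443 and 2404 CPM with NPPC-Exo, 1954, 1776 and 1901 with miR-Exo, 1949, 1698 and 1813 with Erastin+NPPC-Exo, and 1147, 1168 and 1136 with Erastin+miR-Exo. Flnc, the filamin of muscle, stood at 1407, 1358 and 1171 CPM with NPPC-Exo, 1229, 1120.0 and 1179.6 with miR-Exo, 620.2, 538 and 581 with Erastin+NPPC-Exo, and 349, 297 and 389 with Erastin+miR-Exo. Both fell under each exosome, with log2 fold changes of -0.45 ± 0.05 and -0.71 ± 0.05 for Actn1 and of -1.18 ± 0.09 and -1.77 ± 0.09 for Flnc. Synpo2, myopodin, stood at 15.6, 18.1 and 16.2 CPM with NPPC-Exo, 22.5, 16.5 and 21.01 with miR-Exo, 5.21, 5.20 and 4.80 with Erastin+NPPC-Exo, and 4.41, 4.41 and 4.81 with Erastin+miR-Exo, and fell (-1.71 ± 0.12 and -2.14 ± 0.12). Its relative Synpo, synaptopodin, rose by 0.60 ± 0.09 and 0.50 ± 0.09, from 63.2 to 82.9 CPM without erastin to 101 to 118 with it. Pdlim1 (-0.43 ± 0.05 and -0.54 ± 0.05) and Pdlim5 (-1.11 ± 0.07 and -1.24 ± 0.07), which carry PDZ and LIM domains and bind alpha-actinin, fell under both.

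Pdlim7, a further gene of that kind, was the member with the largest interaction. It stood at 223, 145 and 127 CPM with NPPC-Exo, 199.9, 175 and 174 with miR-Exo, 128, 135 and 149.8 with Erastin+NPPC-Exo, and 39.1, 42.7 and 53.7 with Erastin+miR-Exo. With Erastin+NPPC-Exo its 3 values lay within the range of the NPPC-Exo libraries, and with Erastin+miR-Exo all 3 lay far below every other library. The log2 fold change was -0.26 ± 0.17 under NPPC-Exo (edgeR adjusted p = 0.252; 0.02 and 0.924 by library size alone) and -2.02 ± 0.18 under miR-Exo (adjusted p = 7.23e-07), and the interaction was -1.76 ± 0.25 (adjusted p = 0.00107). The first NPPC-Exo library, at 223 CPM, was above the other two of its group. Without both first replicates the 3 values were 0.02 (adjusted p = 0.92), -1.95 and -1.97 (adjusted p = 0.000217).

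The 3 genes of filament turnover did not share a direction. Dstn, destrin or actin depolymerizing factor, stood at 1667, 1753 and 1872 CPM with NPPC-Exo, 1366, 1479.8 and 1473 with miR-Exo, 876, 815 and 830.1 with Erastin+NPPC-Exo, and 701, 723 and 681 with Erastin+miR-Exo. It fell under both exosomes (-1.07 ± 0.05 and -1.04 ± 0.05), with no overlap between libraries with and without erastin. Its paralog Cfl1, cofilin, stood at 647, 655 and 674 CPM with NPPC-Exo, 618, 619.5 and 601 with miR-Exo, 812, 749 and 813 with Erastin+NPPC-Exo, and 634, 608 and 671 with Erastin+miR-Exo. Cfl1 rose under NPPC-Exo (0.26 ± 0.05, edgeR adjusted p = 0.000445), and the value under miR-Exo was 0.06 ± 0.05 (adjusted p = 0.345), or 0.36 (adjusted p = 1.73e-05) by library size alone. Pfn1, profilin, which loads monomers onto filament ends, stood at 301, 274 and 302 CPM with NPPC-Exo, 315, 273 and 245 with miR-Exo, 320.3, 294 and 324 with Erastin+NPPC-Exo, and 225, 230.4 and 234 with Erastin+miR-Exo. It fell under miR-Exo (-0.27 ± 0.08, adjusted p = 0.00995), where library size alone turned the sign (0.03, adjusted p = 0.744) and the value without both first replicates was -0.18 (adjusted p = 0.0462), and gave 0.10 ± 0.08 under NPPC-Exo (adjusted p = 0.345; 0.38 and 0.000821 by library size alone).

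Among the regulators and targets, 4 of 6 fell under NPPC-Exo and 5 of 6 under miR-Exo, where 22.1% and 24.4% of all genes tested fell. Srf stood at 111, 106 and 110.0 CPM with NPPC-Exo, 98.2, 98.96 and 108 with miR-Exo, 93.1, 79.9 and 92.9 with Erastin+NPPC-Exo, and 59.3, 51.02 and 67.98 with Erastin+miR-Exo. Mrtfa stood at 149, 118 and 111 CPM with NPPC-Exo, 144, 121 and 124 with miR-Exo, 79.4, 73.4 and 79.3 with Erastin+NPPC-Exo, and 47.4, 43.2 and 50.6 with Erastin+miR-Exo. Both were lowest in the Erastin+miR-Exo libraries, without overlap with any other group. Mrtfa fell (-0.70 ± 0.10 and -1.46 ± 0.11). Without both first replicates, which held its highest values, these were -0.56 and -1.38. Srf fell under miR-Exo (-0.78 ± 0.09, edgeR adjusted p = 1.24e-05). Its value under NPPC-Exo, -0.30 ± 0.09 (adjusted p = 0.0183), had an adjusted p of 0.111 without the second Erastin+NPPC-Exo library and of 0.0505 without both first replicates, and was -0.01 by library size alone (adjusted p = 0.909).

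Ccn1 and Ccn2, secreted matricellular proteins induced by both Srf and YAP, fell under both exosomes. Ccn2 stood at 7521, 7665 and 8374 CPM with NPPC-Exo, 6781, 6949.8 and 6958 with miR-Exo, 4133, 4002 and 4148 with Erastin+NPPC-Exo, and 2633, 2639.7 and 2669.8 with Erastin+miR-Exo. Ccn1 stood at 1199.9, 1187 and 1387 CPM with NPPC-Exo, 1101, 998 and 1098 with miR-Exo, 716, 614 and 624 with Erastin+NPPC-Exo, and 402, 437 and 410.3 with Erastin+miR-Exo. The order of the groups was the same for both, from NPPC-Exo down to Erastin+miR-Exo, and neither erastin group overlapped with another group. The log2 fold changes were -0.94 ± 0.04 and -1.38 ± 0.04 for Ccn2 and -0.95 ± 0.07 and -1.36 ± 0.07 for Ccn1 (edgeR adjusted p at most 2.09e-07). Amotl2, an angiomotin that YAP induces and that holds YAP back, stood at 422, 343 and 359 CPM with NPPC-Exo, 501, 355 and 369 with miR-Exo, 357, 342 and 361 with Erastin+NPPC-Exo, and 218, 194 and 235 with Erastin+miR-Exo. It fell under miR-Exo (-0.92 ± 0.12, or -0.75 without both first replicates) and gave -0.08 ± 0.12 under NPPC-Exo (adjusted p = 0.61; 0.20 by library size alone, adjusted p = 0.163). Ankrd1, another YAP target, was low in all groups, at 0.845 to 4.10 CPM, and passed no test.

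Without erastin, fewer of these genes differed between the exosome kinds than changed with erastin. Of the 40, 3 were higher and 10 lower with miR-Exo than with NPPC-Exo, where 4.15% of all genes tested were higher and 6.52% lower (10.7% called), and their median log2 difference was -0.11 against 0.00 over all genes. The share of higher genes among those called was 38.9%, or 68.7% by library size alone. On that scale 3 members were higher and 6 lower, where 11.8% of all genes tested were called. The largest differences were in Actg2 (-0.64 ± 0.08, edgeR adjusted p = 0.000256) and Mylk (0.57 ± 0.07, adjusted p = 0.000167), which opposed each other: Actg2 ran from 159.8 to 177 CPM with miR-Exo against 245 to 275 with NPPC-Exo, and Mylk from 610.2 to 618 against 379 to 434. Cnn3 (0.26 ± 0.05) and Myh10 (0.20 ± 0.04) were the other members that were higher. Actn1 (-0.41 ± 0.05), Tagln (-0.31 ± 0.07), Dstn (-0.29 ± 0.05), Pdlim1 (-0.28 ± 0.05), Acta2 (-0.27 ± 0.06) and Ccn2 (-0.19 ± 0.04) were lower. The calls of Tpm2 (-0.21 ± 0.06), Tagln2 (-0.19 ± 0.05) and Actn4 (-0.18 ± 0.05) were lost when most single libraries were left out, with adjusted p up to 0.127, 0.139 and 0.133. The libraries whose loss did not end the call were the first NPPC-Exo, the first and second Erastin+NPPC-Exo and the third Erastin+miR-Exo for Tpm2, the first NPPC-Exo, the second miR-Exo and the third Erastin+miR-Exo for Tagln2, and the first and second Erastin+NPPC-Exo and the third Erastin+miR-Exo for Actn4. Smtn was at 0.36 ± 0.15 (adjusted p = 0.157) and Pdlim7 at 0.15 ± 0.17 (adjusted p = 0.645), and both passed when the first NPPC-Exo library was left out (0.59, adjusted p = 0.00904, and 0.43, adjusted p = 0.0404), Smtn also without both first replicates (0.48, adjusted p = 0.0248). Without both, Myl6 passed as well (-0.37, adjusted p = 0.0317, in place of -0.24 ± 0.11 and 0.187), and the calls of Myh10 (0.19, adjusted p = 0.0648) and Actn4 (-0.19, adjusted p = 0.0936) were lost. With a replicate block in these 2 groups, Smtn (0.38, adjusted p = 0.0287) and Ccn1 (-0.24, adjusted p = 0.0328, in place of 0.0537) passed besides the 13.

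With erastin, the contractile genes were lower with miR-Exo than with NPPC-Exo. Here 34 of the 40 were lower and 1, Myh10 (0.26 ± 0.04), was higher, where 15.8% of all genes tested were lower and 15.6% higher (31.3% called). The median was -0.49 against 0.01. By library size alone 27 were lower and 2 higher, where 35.3% of all genes tested were called. Of the genes called, 68.6% were then higher in place of 49.7%. The lowest values were those of Actg2 (-1.64 ± 0.08, edgeR adjusted p = 5.31e-08) and Pdlim7 (-1.61 ± 0.18), which were 3.12-fold and 3.05-fold lower. Acta2 (-0.91 ± 0.06), Tagln (-0.88 ± 0.07), Smtn (-0.87 ± 0.16), Flnc (-0.75 ± 0.09), Tpm1 (-0.75 ± 0.05) and Mrtfa (-0.72 ± 0.11) followed. Myh11 was lower (-0.68 ± 0.05), whereas Mylk, at 67.3, 57.3 and 58.8 CPM with Erastin+NPPC-Exo and 58.3, 60.9 and 55.4 with Erastin+miR-Exo, gave -0.07 ± 0.07 (adjusted p = 0.478), which by library size alone was 0.03 (adjusted p = 0.758). Synpo, Synpo2, Tagln2 and Ankrd1 also did not pass. The small differences of Actb (-0.42 ± 0.13), Cnn3 (-0.16 ± 0.05) and Myl6 (-0.35 ± 0.11) lost their call without the first or the third Erastin+NPPC-Exo library or the first Erastin+miR-Exo library, Cnn3 also without the third and Myl6 also without the second Erastin+miR-Exo library (edgeR adjusted p from 0.0627 to 0.0666 for Actb, and up to 0.0766 for Cnn3 and 0.0845 for Myl6). That of Tpm4 (-0.22 ± 0.07) did so without the third Erastin+NPPC-Exo library (0.0591) or the third Erastin+miR-Exo library (0.0511). The summed FPKM of the smooth muscle and pericyte list was 105 to 114 and 99.5 to 102 in these groups, and its part in the difference was not tested. The erastin comparison under miR-Exo and this one share the Erastin+miR-Exo libraries, so a low value there lowers both.

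**Figure D4:**
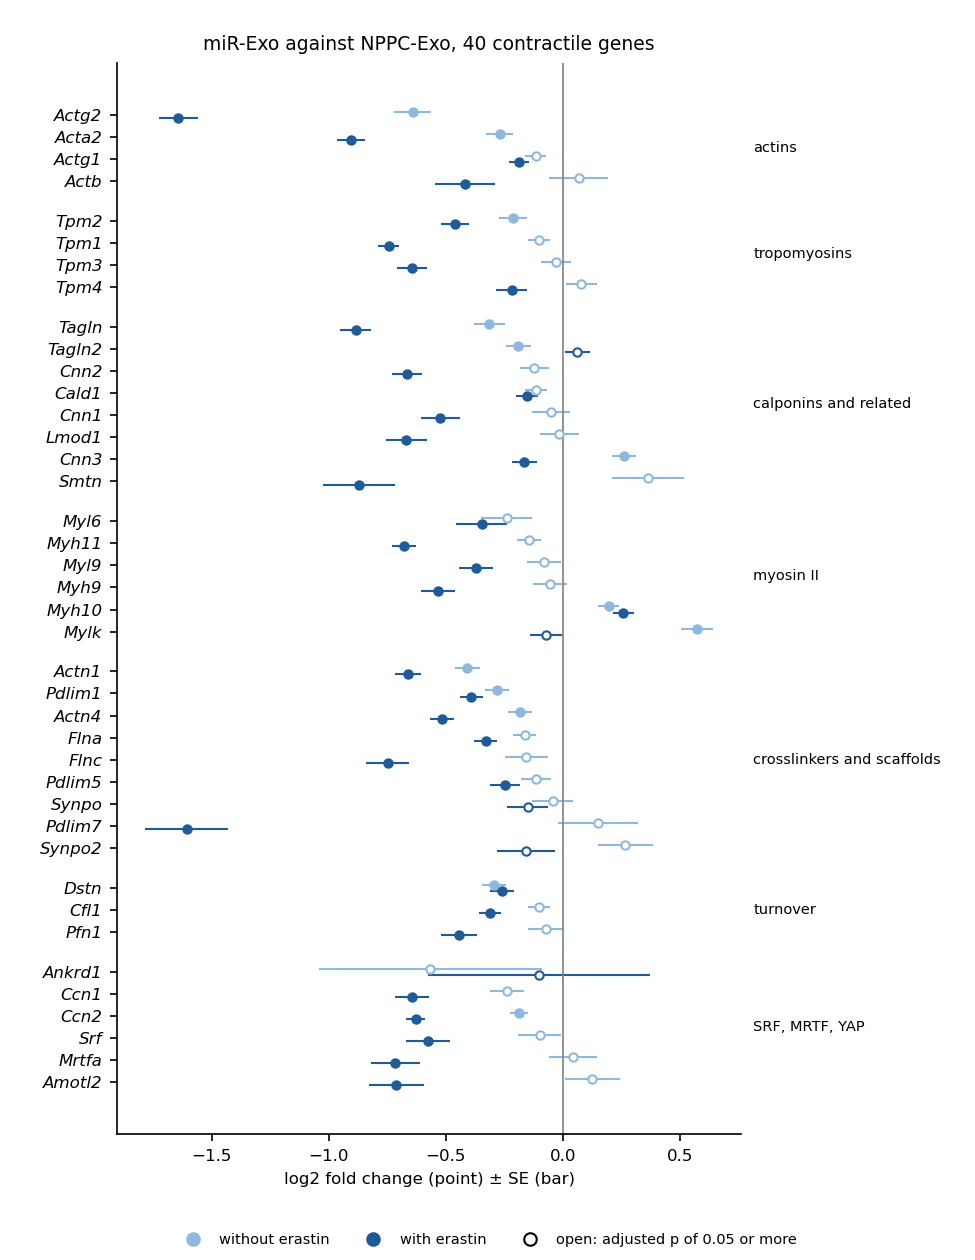
Log2 difference of miR-Exo from NPPC-Exo (horizontal axis, point ± SE) of the 40 genes found, by role, without erastin (pale) and with erastin (dark); open points did not reach an adjusted p under 0.05. Most dark points lie left of the pale ones, furthest for Pdlim7 and Smtn.

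The test of the difference between both erastin effects called 24 members. For 23 of them the value under miR-Exo was the lower one, where 7.01% of all genes tested were lower and 5.81% higher (12.8% called), and the median was -0.42 against 0.03. The actins Acta2 (-0.64 ± 0.08, edgeR adjusted p = 0.000709) and Actg2 (-1.001 ± 0.11), Tpm1 (-0.64 ± 0.07), Tagln (-0.57 ± 0.09), Mylk (-0.64 ± 0.10), Smtn (-1.23 ± 0.22), Amotl2 (-0.84 ± 0.17) and Mrtfa (-0.76 ± 0.15) were among them. Tpm3 (-0.61 ± 0.09) was one too, having risen under NPPC-Exo. The interaction of Mylk rests on its higher level with miR-Exo before erastin, since its level with erastin was about the same for both exosomes. In contrast Dstn (0.03 ± 0.07), Cald1 (-0.04 ± 0.07) and Myh10 (0.06 ± 0.06) gave values close to 0, with adjusted p from 0.588 to 0.82, which does not show that their effects were alike. The calls of Tagln2 (0.25 ± 0.08), Actn1 (-0.25 ± 0.08), Pfn1 (-0.37 ± 0.11) and Srf (-0.48 ± 0.13) were lost when 10, 8, 8 and 6 of the 12 libraries were left out singly, with adjusted p up to 0.15, 0.108, 0.105 and 0.0738. The Tagln2 call held without the first NPPC-Exo or the second miR-Exo library, the Actn1 call without the first NPPC-Exo, second miR-Exo, second Erastin+NPPC-Exo or the third Erastin+miR-Exo library, and the Pfn1 call without the first NPPC-Exo, the third miR-Exo, second Erastin+NPPC-Exo or the third Erastin+miR-Exo library. The Srf call was lost without the second or the third NPPC-Exo, the third miR-Exo, the first or the third Erastin+NPPC-Exo, or the first Erastin+miR-Exo library. The call of Ccn1 (-0.41 ± 0.10) was lost without the second NPPC-Exo library (adjusted p = 0.0617) or the first miR-Exo library (0.055). Without both first replicates the calls of Ccn1 (adjusted p = 0.0727), Pfn1 (0.0614) and Srf (0.05) were lost as well. Actb gave -0.49 ± 0.18 (adjusted p = 0.0955), and passed without the third miR-Exo library (-0.60, adjusted p = 0.0443) and without both first replicates (-0.30, adjusted p = 0.0136).

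Genes of 3 pathways around stress fibres were counted in the same fit. The first list holds other cofactors and targets of Srf and MRTF, Myocd and Des among them, which are also on the smooth muscle marker list. Of its 28 genes tested, 20 fell and 2 rose under NPPC-Exo (median -0.69), and 23 fell and 2 rose under miR-Exo (median -1.37); the background is that given for the members. Mical2, an enzyme that oxidizes actin and raises MRTF activity, stood at 349.7, 328 and 307 CPM with NPPC-Exo, 283, 255 and 284 with miR-Exo, 129, 122 and 133 with Erastin+NPPC-Exo, and 61.4, 61.2 and 65.7 with Erastin+miR-Exo. It fell (-1.36 ± 0.06 and -2.13 ± 0.06), and the interaction was -0.77 ± 0.09 (edgeR adjusted p = 0.000366). Nexn, nexilin, a filament-binding protein, fell (-2.39 ± 0.08 and -2.52 ± 0.08), and so did the LIM-only protein Fhl1 (-2.38 ± 0.09 and -2.61 ± 0.09), from 1757 to 1921 CPM without erastin to 295 to 420.1 with it. Fhl2, its relative, fell (-0.56 ± 0.06 and -1.43 ± 0.06). The 2 that rose under each exosome were Elk3 and Elk4, ternary complex factors that also bind Srf, named here after their values were seen. Between the exosome kinds, 3 genes of the list were higher and 7 lower with miR-Exo without erastin, and 3 higher and 18 lower with erastin, and 7 had a negative interaction; the shares over all genes tested are those given for the members (4.15% higher and 6.52% lower, 15.6% and 15.8%, and 7.01% negative).

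Of the 41 genes of the Arp2/3 complex, capping and turnover list, 8 rose and 14 fell under NPPC-Exo and 6 rose and 17 fell under miR-Exo, where 21.5% of all genes tested rose and 22.1% fell under NPPC-Exo and 24.7% and 24.4% under miR-Exo. The list's medians were -0.10 and -0.18. Among them 3 that fell were Gsn, gelsolin, which severs and caps filaments (-0.90 ± 0.06 and -1.002 ± 0.06), Pls3, a plastin that bundles them (-0.96 ± 0.06 and -0.87 ± 0.06), and the coronin Coro1c (-0.51 ± 0.05 and -0.85 ± 0.05). Cotl1, a filament-binding protein of the coactosin kind, rose by 2.09 ± 0.13 and 1.18 ± 0.13. Of the 34 YAP and TEAD genes, 5 rose and 13 fell under NPPC-Exo and 9 rose and 19 fell under miR-Exo, with medians of -0.07 and -0.29 and the same background. Tgfb2, a TGF-beta ligand, fell (-1.40 ± 0.07 and -1.94 ± 0.07), as did Crim1 (-0.38 ± 0.07 and -1.20 ± 0.07) and Fjx1 (-1.67 ± 0.15 and -1.92 ± 0.15), while Asap1 rose by 0.49 ± 0.06 and 0.67 ± 0.06. With erastin, miR-Exo against NPPC-Exo gave 5 higher and 16 lower genes of the Arp2/3 list, and 3 and 17 of the YAP and TEAD list, where 15.6% of all genes were higher and 15.8% lower. Without erastin the counts were 2 and 6, and 2 and 10, where 4.15% of all genes were higher and 6.52% lower. Positive and negative interactions numbered 1 and 10, and 1 and 9, where 5.81% of all genes were positive and 7.01% negative.

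Promoters were read from RefSeq (GRCr8) for 34 of the 41 listed genes, as the 250 bases before the start; Actb, Tagln, Lmod1, Myl9, Myh11, Actn4 and Ankrd1 were not matched. The CArG box, which Srf binds and which reads the same on both strands, lay in 3 of the 34 (8.82%) and in 501 of all 33469 RefSeq promoters (1.5%). The letters GGAATG, the core that TEAD factors bind, lay on either strand in 12 of the 34 (35.3%) and in 4037 of all (12.1%). No member held both. Each member counts with 1 promoter, while the full set counts every promoter entry and is not limited to the genes tested. The shares are therefore not over like units, and the members include genes listed as Srf and YAP targets. Shown are the 3 promoters with a CArG box, and that of the YAP target Ccn2, which held the most copies of GGAATG among the members, 3. Capitals mark the motifs, which begin 90 bases before the start in Actg1, 71 in Cnn2, 81 and 61 in Srf, and 166, 101 and 92 in Ccn2. With erastin under NPPC-Exo, the log2 fold changes of these 4 genes were 0.19, -0.17, -0.30 and -0.94 in the order printed. Those of Cnn2 and Srf depended on the scaling, as given above. Under miR-Exo the values were 0.12, -0.71, -0.78 and -1.38. A match is a description of letters, and the absence of one says only that they are not in this window.
Actg1, chr10:106120952-106121201, minus strand: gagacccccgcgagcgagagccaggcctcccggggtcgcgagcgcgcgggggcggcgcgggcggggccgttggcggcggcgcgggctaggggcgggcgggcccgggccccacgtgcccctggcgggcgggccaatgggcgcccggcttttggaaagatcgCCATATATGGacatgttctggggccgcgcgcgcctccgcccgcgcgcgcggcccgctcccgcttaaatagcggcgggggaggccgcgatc
Cnn2, chr7:10370313-10370562, minus strand: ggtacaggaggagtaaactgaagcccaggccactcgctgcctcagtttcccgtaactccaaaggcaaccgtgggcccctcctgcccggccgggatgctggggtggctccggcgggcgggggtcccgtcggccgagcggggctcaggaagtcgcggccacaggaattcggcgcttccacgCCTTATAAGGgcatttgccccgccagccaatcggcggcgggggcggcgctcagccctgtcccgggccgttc
Srf, chr9:21923826-21924075, plus strand: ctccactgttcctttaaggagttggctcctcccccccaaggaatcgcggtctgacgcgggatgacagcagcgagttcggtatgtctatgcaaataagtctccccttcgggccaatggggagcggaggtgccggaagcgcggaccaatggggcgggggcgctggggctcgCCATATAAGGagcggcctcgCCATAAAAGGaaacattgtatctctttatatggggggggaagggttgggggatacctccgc
Ccn2, chr1:22624615-22624864, minus strand: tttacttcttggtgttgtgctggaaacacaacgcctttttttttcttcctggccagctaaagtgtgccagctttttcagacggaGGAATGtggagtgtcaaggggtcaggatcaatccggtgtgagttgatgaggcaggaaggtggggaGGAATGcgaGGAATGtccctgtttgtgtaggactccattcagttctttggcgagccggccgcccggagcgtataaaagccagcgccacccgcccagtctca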

How the data were processed

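The authors deposited 1 gene table with raw read counts and FPKM (fragments per kilobase, scaled to library depth) for the 12 libraries, per the file headers. StringTie and the build mRatBN7.2 are named in the submitters' processing notes, whereas neither the aligner nor the counter is given in the sources used here. The deposited FPKM were used only within libraries, to compare genes, and in 2 alternatives. Per the labels' protocols, second strands were marked with dUTP, and whether the counting used strand is not given. Of the counts from 1 to 20, 57.3% were even, so halved counts were tried as well.

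Counts were tested with edgeR 4.0.16 (R 4.3.3, quasi-likelihood, TMM, filterByExpr, 4 group means over 12 libraries), with Benjamini-Hochberg adjustment over 15650 genes at 0.05. The code was run on simulated data in which a small set of genes changed, in either direction, in the Erastin+NPPC-Exo group alone. That setting does not test the scaling where many genes change. Alternatives were other scalings and filters, DESeq2 1.42.0, limma 3.58.1 on log2(FPKM + 1) and log2(FPKM + 0.1), only the groups compared, a replicate block, and single libraries left out. Leaving out both first replicates without erastin was chosen after seeing the data, as was a replicate block in the groups without erastin alone. The labels do not say that replicate numbers pair libraries. The deviations of same-numbered NPPC-Exo and miR-Exo libraries from their group means correlated at 0.118 to 0.4, over 0.1 in all 3 pairs. In no other pair of groups did all 3 exceed 0.1. From the data alone, a replicate block was therefore tried as an alternative for the comparison of these 2 groups, while the main tests used no block. The third NPPC-Exo and the second miR-Exo library, which differ in number, correlated at 0.205. The members and all gene lists were chosen with earlier results of these data known. Values in every library are given for the 2 members of each role with the highest mean FPKM, the 2 with the largest called change, and those called in the interaction; of each pathway list, up to 4 genes with the smallest adjusted p with erastin were named. One further pathway list is not reported here. Sequences came from RefSeq tables (GRCr8); the table's own coordinates were not used.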

Additional observations from a re-analysis of the deposited data

Results flagged for a closer look

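The results listed here are the members whose change with erastin differed between the exosome kinds by a test of the difference itself, the interaction term of the edgeR fit (adjusted p under 0.05 over 15650 genes). Each value is the log2 fold change with erastin under miR-Exo minus that under NPPC-Exo, so a negative value means a lower one under miR-Exo. Among actins and tropomyosins these were Acta2 (-0.6371), Actg2 (-1.001), Tpm1 (-0.6436) and Tpm3 (-0.614). Among the calponin, transgelin, smoothelin and leiomodin genes they were Cnn1 (-0.4727), Cnn2 (-0.5444), Cnn3 (-0.4268), Tagln (-0.57), Tagln2 (0.2508), Smtn (-1.235) and Lmod1 (-0.653). Among the myosin II genes they were Myh9 (-0.4791), Myh11 (-0.5357) and Mylk (-0.6439). The crosslinkers and scaffolds gave Actn1 (-0.2534), Actn4 (-0.3337), Flnc (-0.5916) and Pdlim7 (-1.757), and filament turnover gave Pfn1 (-0.3717). The regulators and targets gave Srf (-0.478), Mrtfa (-0.7598), Ccn1 (-0.4057), Ccn2 (-0.4415) and Amotl2 (-0.8373). Tagln2 was the one member with a positive value.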

How the results depend on the processing

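Of the 200 member results (40 genes in 5 comparisons), 168 kept both sign and call when libraries were scaled by size alone, 192 with DESeq2, and 161 with limma on log2(FPKM + 1) or log2(FPKM + 0.1); a further 11, 1 and 13 were called in neither fit and turned their sign. Values called in either fit that turned were those of Tpm4 (0.1712, size alone) and Cnn2 (0.1145, size alone; 0.1078 and 0.1081, limma) with erastin under NPPC-Exo, and Pfn1 with erastin under miR-Exo (0.03142, 0.0315 and 0.03161 in the same order); these 2 scalings do not apply TMM factors. For miR-Exo against NPPC-Exo without erastin, limma on either FPKM scale called 6 members in place of 13, all 6 shared with the 13; the cause was not tested. With single libraries left out, the members called ranged from 32 to 35 and from 36 to 37 with erastin under NPPC-Exo and miR-Exo, from 10 to 17 between the exosome kinds without erastin, from 31 to 35 between them with erastin, and from 19 to 26 in the interaction. Over all genes, the 1669 calls between the exosome kinds without erastin became 970 and 1042 without the second NPPC-Exo or the second miR-Exo library. Without the first NPPC-Exo library they became 1854. The 2006 calls of the interaction became 1218, 1272, 1205, 1227 and 1300 without the second NPPC-Exo, the first miR-Exo, the third Erastin+NPPC-Exo, and the first or the second Erastin+miR-Exo library, with fewer samples in each fit. They became more, 2419 and 2349, without the first NPPC-Exo or the third Erastin+miR-Exo library. Without both first replicates, 32, 37, 13, 35 and 22 members were called in the order of the 4 comparisons and the interaction, where 34, 37, 13, 35 and 24 were called with all libraries. With a replicate block over all 12 libraries 34, 37, 13, 35 and 24 members were called and none of the 200 changed its call; with the block in the groups without erastin alone 15 were called between the exosome kinds without erastin, all 13 among them, and no call other than those of Smtn and Ccn1 changed. Values with erastin nearer 0 than 0.30, the median of all genes by library size alone under NPPC-Exo, can turn with the scaling, and 3 libraries a group limit the precision of all.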
